A study of Schizosaccharomyces pombe with 12 samples.

Results

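Convergent neighbouring protein-coding gene pairs are pairs in which the left gene lies on the plus strand and the right gene on the minus strand, so that the 3′ ends of both transcripts face each other. They were found in the annotation deposited with a study of double-strand break repair in the fission yeast Schizosaccharomyces pombe. On chromosomes I, II and III the annotation held 5149 protein-coding genes by systematic name, which were sorted by start and taken in neighbouring pairs. Of the 5146 adjacent pairs, 1404 were convergent, and the region of each pair is the gap between its facing 3′ ends or, where they pass each other, the overlap. The rule used the order, strand and coordinates of the genes and no measured value.

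The study recorded 12 libraries of ChIP-exo, which adds exonuclease digestion to chromatin immunoprecipitation so that fragment ends mark the border of a bound stretch. All strains carried the DSB-PpoI system, in which the homing endonuclease I-PpoI can be switched on to cut a site placed on chromosome II, and all cultures were grown in the full medium YEA. Antibody S9.6, raised against RNA-DNA hybrids, served in an Rnh1del-Rnh201del strain with I-PpoI induction ON (n = 2) or OFF (n = 2). Ssb2, the RPA subunit tagged with Flag (RPA coats single-stranded DNA), was recovered in the DSB-PpoI strain with no further change and induction OFF (n = 2) or ON (n = 2), in Rnh1del-Rnh201del with induction ON (n = 2) and in pNmt1::Rnh1, where the nmt1 promoter drives rnh1, with induction ON (n = 2). Rnh1 and Rnh201 belong to the ribonuclease H enzymes, which degrade the RNA of RNA-DNA hybrids. Library signal and depth were not analysed here, and no comparison between these groups was made. What follows is a full count over the annotation, with no replicates and no test. Intervals are 95% Wilson intervals that treat pairs as independent, although neighbouring pairs are not.

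Where convergent genes are both transcribed, polymerases approach each other, and a transcript that runs past its neighbour's end is antisense to it. Cleavage and polyadenylation factors end most messenger RNAs near an AAUAAA or related signal, written AATAAA in DNA. In fission yeast, regions between convergent genes are known as places where cohesin, the ring that holds sister chromatids together, accumulates, and read-through transcripts there can pair into double-stranded RNA, the substrate of the RNA interference enzyme Dicer.

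Some regions were short enough to be read in full, and these show what tail-to-tail packing looks like in sequence. Sequences are from RefSeq (build ASM294v3, chromosomes without the insert), plus strand, 5′ to 3′, with the stop codons in capitals. The stop codon of the minus-strand gene is therefore seen as its reverse complement, TTA, CTA or TCA. In the pairs mug57/mug97 (chrII:1020296-1020322) and dsc4/new13 (chrI:5373191-5373204) the coding sequences overlapped, so the minus-strand stop comes first. In rdh54/atf31 (chrI:706826-706846), hfl1/aps3 (chrI:1110108-1110119) and spn6/dcr1 (chrIII:1506143-1506168) the coding sequences lay 15, 6 and 20 bases apart. rdh54 encodes a recombination protein of the Rad54 family, and dcr1 encodes Dicer.
mug57/mug97: TTAtctacaccaagtattcgagagTAG
dsc4/new13: CTAatcccattTGA
rdh54/atf31: TAGatctatttcggacttTTA
spn6/dcr1: TGAaatactgtatatttcaagtcTCA
hfl1/aps3: TAAaagtcaCTA
In each line a single short run separates, or is shared by, the coding sequences of genes on opposite strands.

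A second set shows AATAAA, in capitals, before annotated 3′ ends in pairs near the break site or holding a gene named in the sample labels, read 5′ to 3′ on the gene's own strand. Only genes with a match are printed, so the lines do not show how often the motif occurred in these pairs. The motif began 37 bases before the 3′ end of gyp10 (chrII:1241450-1241479, minus strand) and 49 bases before that of SPBC651.04 (chrII:1247094-1247123, plus strand). It began 26 bases before the end of dot2 (chrII:1245928-1245957, minus strand), 21 before that of pcf11 (chrI:2255680-2255709, minus strand) and 98 before that of gut2 (chrIII:1840674-1840703, minus strand). The annotated 3′ untranslated region of gut2 is 93 bases, so this last match begins in the coding sequence and covers the stop codon TAA. The last line gives the 30 bases at the centre of the overlap of res1 and rrn11 (chrII:1235532-1235561, plus strand), a stretch of 20% G+C.
gyp10: tatgcattaattAATAAAataagtacttac
SPBC651.04: cctgcttaggagAATAAAccatccattaat
dot2: aaactaatgaagAATAAAactttgaattcg
pcf11: taaccaaatgctAATAAAggttttctacgt
gut2: agttcgaagtcaAATAAAgagaacaatgtg
res1/rrn11: ttaaatttaaatgtatcttcccatcttatt
These windows are matches of letters and were not tested as polyadenylation sites.

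The 1404 convergent pairs were 27.3% of adjacent coding pairs (26.1 to 28.5%). Divergent pairs numbered 1406 and same-strand pairs 2336. Along a chromosome convergent and divergent pairs must alternate, so their numbers can differ by at most 1 on each. Chromosome I held 641 convergent pairs, chromosome II 519 and chromosome III 244, which was 114.9, 114.4 and 99.47 per Mb. The median distance between the centres of successive convergent regions was 7.51 kb, with quartiles of 4.94 and 11.3 kb and a largest value of 81.9 kb. Between 417 of 1401 successive convergent pairs (29.8%) lay only a divergent pair, and the next convergent pair was at most 12 gene pairs further along. In full 100 kb windows the count ran from 7 to 15 on chromosome I (median 12), from 7 to 17 on chromosome II (median 12) and from 5 to 15 on chromosome III (median 10). Convergent pairs thus occurred in every such window. A convergent pair took in 2808 genes, or 54.5% of all coding genes, and no gene was in more than 1.

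The facing ends overlapped in 868 of 1404 convergent pairs (61.8%, 59.25 to 64.3%). In 8 pairs the ends adjoined directly, and 528 pairs (37.6%) had a gap. With starts moved right by 1 base, to allow for the lower deposited starts described below, the overlapping share was 61.1%. Among divergent pairs, compared at their 5′ ends, 305 of 1406 overlapped (21.7%), and among same-strand pairs 324 of 2336 (13.9%). Those divergent overlaps include 90 pairs whose coding sequences lay tail to tail, described below. Same-strand overlaps were short, with quartiles of 46.75 and 68 bases. Both of these classes rest wholly or partly on 5′ ends, which matched RefSeq far less often than 3′ ends, as given below. The share of overlapping convergent pairs was 61.2% on chromosome I, 63.2% on chromosome II and 60.7% on chromosome III. Overlapping pairs held 1736 genes, 33.7% of all coding genes, and the bases they shared covered 587.1 kb, or 4.67% of the 12.57 Mb of nuclear sequence. The plot of region sizes shows the convergent pairs crowded around 0.

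**Figure D1:**
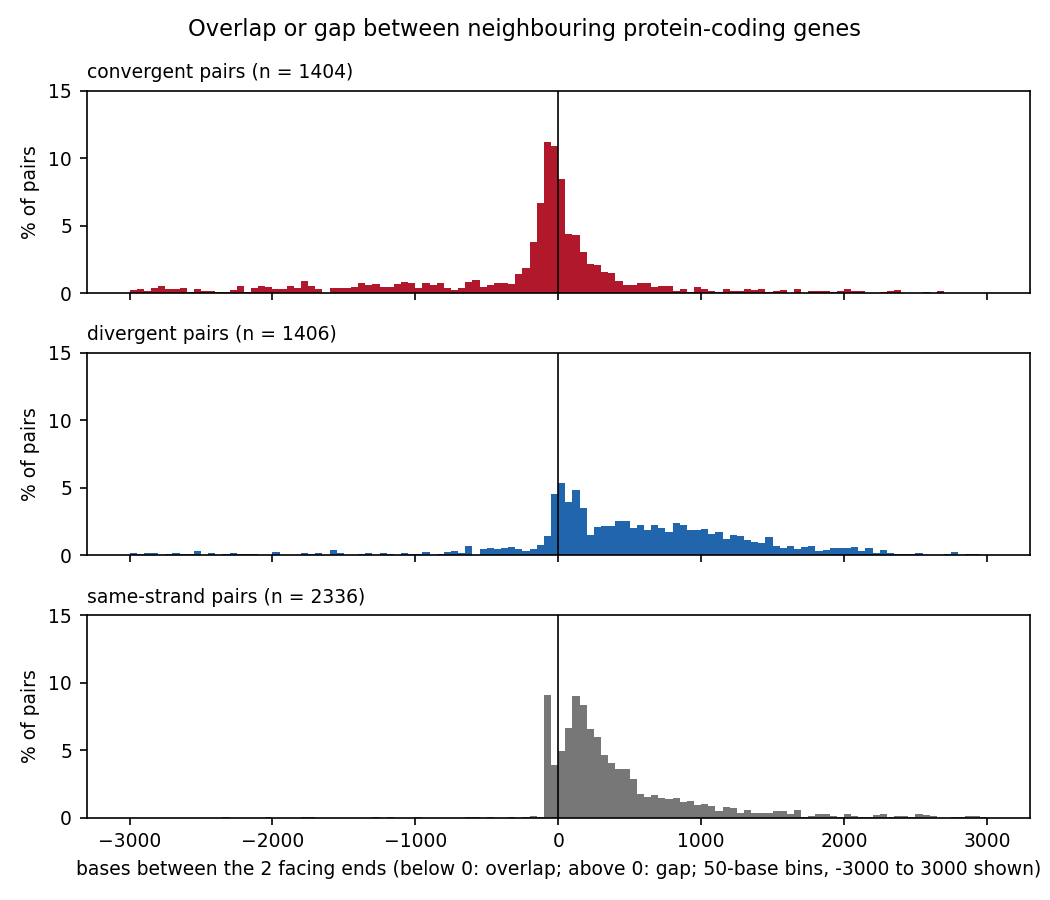
Percent of pairs (vertical axis) by the bases between facing ends (horizontal axis, 50-base bins, negative where the ends pass each other) for 1404 convergent, 1406 divergent and 2336 same-strand pairs. Regions outside the range drawn were 45 convergent, 74 divergent and 40 same-strand. The convergent pairs peak just left of 0 and have a long tail of overlaps.

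Most convergent regions were small. The median signed size was -55 bases, with quartiles of -375 and 105, where negative means that the ends pass each other. In 275 pairs (19.6%) the ends lay within 50 bases of each other, against 10.2% of divergent and 9.03% of same-strand pairs, and in 44 convergent pairs within 5 bases. Pairs whose ends adjoined directly included rhp6/lcp5, a ubiquitin-conjugating enzyme and a U3 snoRNP-associated protein, and sec13/rev1, a coat and nuclear pore protein and a translesion polymerase. Also at 0 were rps1901/SPBC21C3.14c, which holds a ribosomal protein gene, mam33/utp22 and SPAC922.09/SPAC922.05c. In RefSeq each of these named pairs had a gap of 1 base, since the deposited starts lie 1 base lower.

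In the 868 overlapping pairs the facing ends passed each other by a median of 176.5 bases (quartiles 72 and 1136). Where a gene lies wholly inside the span of its partner, this distance is larger than the stretch both share. The bases shared by both spans had a median of 175 and quartiles of 72 and 1064. There were 153 pairs that shared 1 to 50 bases, 157 that shared 51 to 100, 148 with 101 to 200, 96 with 201 to 500, 86 with 501 to 1000, 141 with 1001 to 2000 and 87 with more. The count was lower at 501 to 1000 bases than at 1001 to 2000, although these bins are of unequal width. In 106 pairs (7.55%) one gene lay wholly inside the other's annotated span.

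The longest overlap was 7817 bases, between prp17, a splicing factor gene, and fab1, which encodes a phosphatidylinositol phosphate kinase. The coding sequences of prp17 and fab1 ended 60 bases apart, and the annotated 3′ untranslated region (UTR, the distance from the stop codon to the transcript end, introns included) was 5911 bases for prp17 and 1965 for fab1. Each of these transcripts passed the whole coding sequence of the other. The checkpoint kinase gene rad3, the fission yeast ATR, and swi1, a gene of the replication fork protection complex, overlapped by 6261 bases with 77 bases between the coding sequences. The 3′ UTR was 2104 bases for rad3 and 4233 for swi1. The pair ams1/dhd1, an alpha-mannosidase and a dihydrodiol dehydrogenase, overlapped by 5534 bases, and again each transcript passed the other's coding sequence. The transcripts of msw1 and peg1 overlapped by 4832 bases. In bet4/SPCC1620.06c and alp41/mug62 the right gene lay wholly inside the span of the left one. Their facing ends passed each other by 5144 and 5082 bases, and the shared bases were the length of the inner gene, 2330 for SPCC1620.06c and 4575 for mug62. alp41 acts in tubulin folding, msw1 is a tryptophan tRNA ligase, and peg1 a microtubule-associated CLASP protein. In all of these 6 pairs at least 1 of the annotated 3′ UTRs was longer than 1000 bases. This follows from their choice as the longest overlaps, since the distance passed is the sum of both 3′ UTRs less that between the stops.

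The 528 gaps had a median of 177 bases (quartiles 63.75 and 477.8), against 699 bases for divergent and 319 for same-strand gaps. Gaps of 1 to 50 bases numbered 114, those of 51 to 100 numbered 59, those of 101 to 200 numbered 103 and those of 201 to 500 numbered 122. A further 61 gaps were of 501 to 1000 bases, 45 of 1001 to 2000 and 24 longer. Since genes were sorted by start, another coding gene could extend across a gap, and this was so in 44 of 528 (8.33%), among them 33 of the 69 gaps of 1000 bases or more. The 484 gaps that no coding gene crossed had a median of 159.5 bases.

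The longest gap was 4629 bases, between the aquaporin-family gene SPAC977.17 and SPAPJ695.02, and held 3 non-coding RNAs. The gap of 4508 bases between rpb7, an RNA polymerase II subunit gene, and eft201, an elongation factor 2 gene, was crossed by tcb3. The gap of 4474 bases between mde3 and tim50 was crossed by sec31, that of 3643 bases between SPAC26A3.11 and the transposon Tf2-4 by dhp1, and that of 3619 bases between mug108 and rrn5 by rga3. The gap of 3936 bases between the iron transport oxidase gene fio1 and the allantoicase gene dal2 held a small nucleolar RNA and a ribosomal RNA feature. Of the 6 longest gaps, 4 were therefore not free of another coding gene.

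Non-coding features touched 92 of the 528 gaps (17.4%, 14.4 to 20.9%). Non-coding RNAs by name (SPNCRNA) lay in 70 gaps, small nucleolar RNAs in 16, transfer RNAs in 13, ribosomal RNAs in 3 and small nuclear RNAs in 2. Of the 868 overlaps, 49 (5.64%) were touched, all of them by an SPNCRNA feature. Divergent gaps were touched in 36.3% of cases and same-strand gaps in 30.2%, but those gaps were longer. Among gaps of 1000 bases or more the shares were 47.8% (36.5 to 59.4%) for 69 convergent, 63.7% for divergent and 58.3% for same-strand gaps.

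Coding ends and 3′ UTRs were taken from RefSeq (ASM294v3), to which 5132 of the 5149 genes were matched by locus tag. The deposited 3′ end equalled the RefSeq 3′ end in 5095 of 5131 genes (99.3%), allowing for the deposited starts lying 1 base lower, whereas the 5′ end did so in only 307 (5.98%). The sizes of convergent regions rest on 3′ ends, those of divergent regions on 5′ ends and those of same-strand regions on 1 end of each kind. In 1386 convergent pairs both genes were protein-coding in RefSeq, and 1286 of these (91.6% of the 1404) were also immediate neighbours in the order of coding sequences. In 85 pairs another coding sequence lay between, and in 15, all overlapping, the coding sequences stood in the opposite order. Conversely, 90 of 1378 pairs that were divergent by start order had coding sequences tail to tail, with a median of 1555 shared bases, since the annotated 3′ end of the minus-strand gene lay before its neighbour's start. In 84 of the 90 the plus-strand gene lay wholly inside the span of its neighbour. Such pairs include spt16/nop2, where the minus-strand transcript has a 3′ UTR of 3591 bases and 3308 bases are shared, and mde3/sec31, tit1/wdr70 and cct6/gap1. The 3′ UTR results below concern the 1286 pairs.

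The median distance between facing stop codons was 393.5 bases (quartiles 247 and 620.5), and the longest was 6758 bases. The matching coding-to-coding distance was 776 bases for same-strand and 1032 bases for divergent pairs. Coding sequences overlapped in 13 convergent pairs (1.01%), by 4 to 249 bases with a median of 35. This occurred in 3 divergent pairs and 1 same-strand pair. The longest coding overlaps were those of sro1/SPBC1347.14c at 249 bases, srr1/pol5 at 104, tsp0/php2 at 86 and his6/map3 at 84. pol5 acts in ribosomal RNA processing, his6 in histidine synthesis, and map3 encodes a pheromone receptor. They were followed by SPCC18.10/sdc1 at 49 bases, alp41/mug62 at 36, abz2/rps3002 at 35 and mug57/mug97 at 27, the last printed above. Convergent genes ended in TAA in 59.6% of cases, in TAG in 21.0% and in TGA in 19.4%, beside 58.2, 21.2 and 20.6% for upstream genes of same-strand pairs.

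The 2572 genes of these pairs had a median 3′ UTR of 233 bases (quartiles 132 and 433.2), and the 2282 upstream genes of same-strand pairs had 251 bases (quartiles 123 and 438.8). The medians were thus close, but the tails were not alike. A 3′ UTR of 1000 bases or more was annotated for 278 convergent genes (10.8%) and for 104 of the same-strand genes (4.56%). No 3′ UTR at all was annotated for 116 convergent genes (4.51%) and 226 same-strand genes (9.90%). Left and right genes had medians of 251 and 214 bases. By its construction the order by start treats the sides unequally, since a minus-strand gene with a very long 3′ UTR can sort before its neighbour and leave the class.

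By RefSeq ends 811 of the 1286 pairs overlapped (63.1%). The overlap stayed within both 3′ UTRs in 408 of them (50.3%). In the other 403 pairs (31.3% of 1286, 28.9 to 33.9%) at least 1 transcript reached the coding sequence of its partner. Only 1 of the transcripts did so in 264 pairs, and both did in 139 pairs (10.8%). In 172 pairs (13.4%) a transcript passed the whole coding sequence of its partner. Counted by gene, 542 of 2572 (21.1%) reached into the neighbour's coding sequence, and their median 3′ UTR was 965 bases, against 193 bases for genes that did not. A gene reaches only if its 3′ UTR is longer than the distance between the stops, so this contrast is in part fixed by definition. For same-strand pairs the upstream transcript reached the next coding sequence in 10 of 2282 (0.438%) and passed it in 1. Those transcripts are of the same strand and so not antisense to it.

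Overlap went with the space between the stop codons. A pair overlaps only if its summed 3′ UTRs are longer than that space, so this relation is in part fixed by definition. With 0 to under 200 bases between the stops, 181 of 200 pairs overlapped (90.5%). The share was 74.0% of 439 pairs at 200 to 400 bases, 62.2% of 291 pairs at 400 to 600, 41.0% of 217 pairs at 600 to 1000 and 17.5% of 126 pairs at 1000 or more. The 3′ UTRs did not shorten in step. The median sum of both 3′ UTRs was 1019 bases where stops lay closest, then 390, 517, 678 and 834 bases. The high value in the closest class is seen in the plot of stop distance against 3′ UTR length as a cloud far above the diagonal. The 225 pairs whose facing RefSeq ends passed each other by 1000 bases or more had a long 3′ UTR (1000 bases or more) on the left gene only in 119 pairs, on the right gene only in 66, on both in 25 and on neither in 15. All 225 reached the partner's coding sequence, and 147 passed it.

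**Figure D2:**
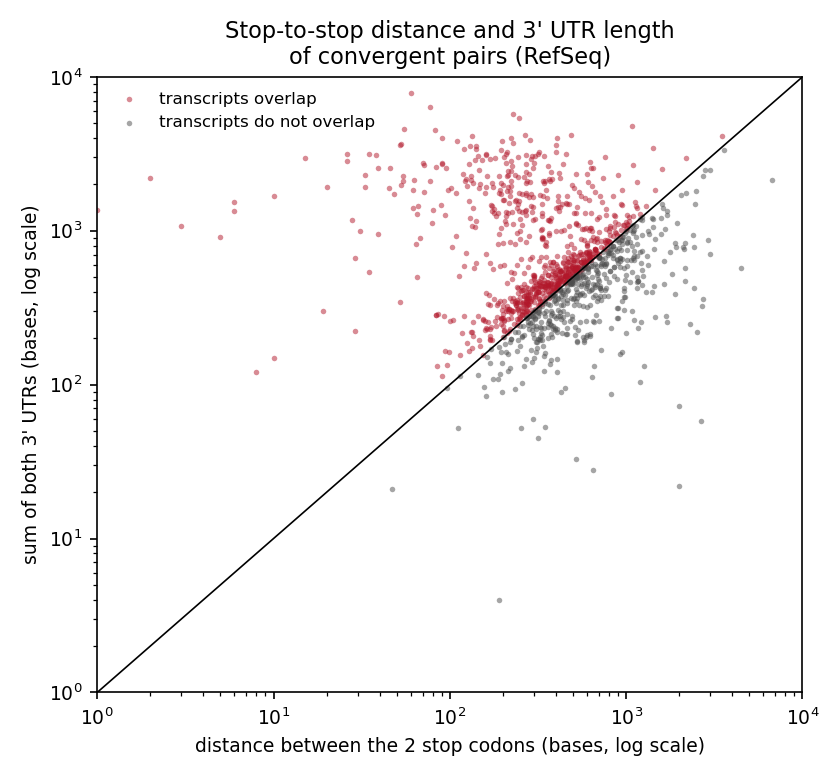
Sum of both 3′ UTRs (vertical axis, bases, log scale) against the distance between the stop codons (horizontal axis, bases, log scale) for 1267 convergent pairs, 1 point a pair. Another 19 pairs with a value of 0 or below cannot be drawn on log axes. On the diagonal the UTRs fill the distance exactly, so by construction overlapping pairs (red) lie above it and the others (grey) below. A red cloud with sums near and above 1000 bases stands apart from the points that follow the diagonal.

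The stretch between convergent stop codons was poor in G+C, with a median of 28.7% over 1242 stretches of 50 bases or more. The median was 31.7% between divergent coding starts, 30.9% between same-strand coding sequences and 38.8% in coding sequence with introns, and all nuclear sequence pooled had 36.1%. Within the convergent stretch, overlaps that stayed inside both 3′ UTRs had the lowest median, 25.9% (quartiles 22.7 and 29.2, n = 280). The 3′ UTRs outside any overlap had 29.0% (n = 810) and the gaps 29.6% (n = 357). The overlaps are also shorter than the other stretches, and their quartiles reach those of the other sets.

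AATAAA was looked for on the gene's own strand in the last 100 bases before each annotated 3′ end of genes with a 3′ UTR. The window kept its length where the 3′ UTR was shorter, so some windows held coding sequence. The share of such windows in each set was not compared. It was present for 741 of 2456 convergent genes (30.2%, 28.4 to 32.0%), 463 of 2056 upstream genes of same-strand pairs (22.5%, 20.8 to 24.4%) and 26.8% of all 4728 coding genes. Of all windows of 100 bases on both strands of the nuclear reference, 11.4% held it. Among convergent genes it was present in 31.6% of 1597 genes in overlapping pairs (29.4 to 33.9%) and in 27.5% of 859 genes in separated pairs (24.6 to 30.55%), and these intervals overlap. On the opposite strand of the same windows the shares were 21.7% for convergent and 27.3% for same-strand genes. Starts of the motif were most frequent 20 to 29 bases before the end, with 192 in 2456 convergent genes (7.82 per 100 genes) and 122 in 2056 same-strand genes (5.93 per 100). A peak at that place was thus seen in both sets, and not on the opposite strand of the convergent genes, as the profile of the motif shows. The base composition of the sets differs, and its part in these shares was not tested.

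**Figure D3:**
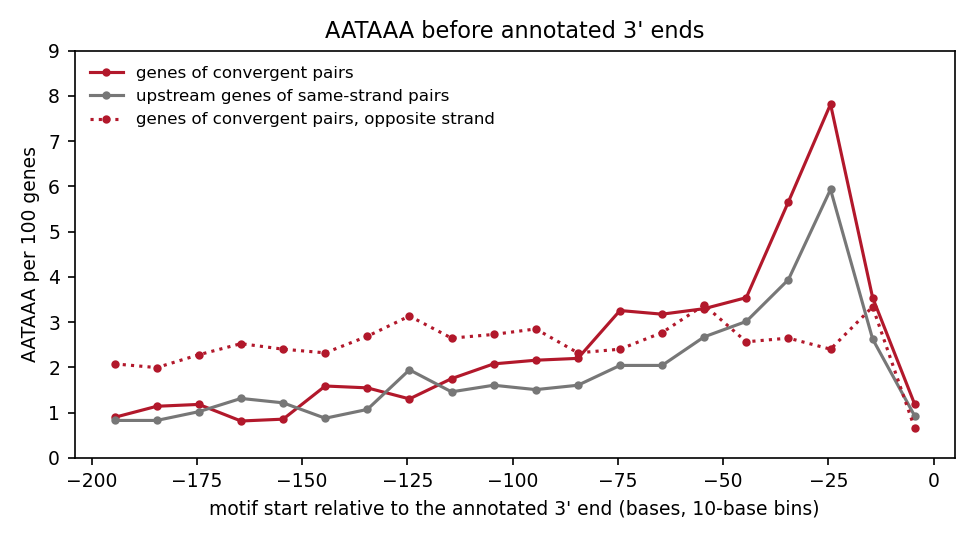
AATAAA starts per 100 genes (vertical axis) by distance from the annotated 3′ end (horizontal axis, 10-base bins) for genes of convergent pairs (red, n = 2456), upstream genes of same-strand pairs (grey, n = 2056) and the opposite strand of the convergent genes (dotted). Both solid lines are highest 20 to 29 bases before the end, at 7.82 and 5.93, and the dotted line has no such peak.

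The break site was set beside the convergent pairs around it. The deposited Cutsite interval lay at chrII:1231085-1231115 of the modified ASM294v2 genome, in the same-strand gap between arg6 and ura5. That gap was 1966 bases, and 124 bases without the 1842-base insert, so distances from the break include sequence of the insert. Within 20 kb of its centre lay 19 adjacent coding pairs, of which 6 were convergent (31.6%), 7 divergent and 6 same-strand. Over the whole annotation 27.3% of adjacent coding pairs were convergent, and no test was made on so few pairs. In 5 of the 6 convergent pairs here the facing ends overlapped, beside 61.8% of all 1404. The positions of the 6 pairs are given in the map of the locus.

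Nearest was nbl1/psf2, at 2.79 kb on the left, which joins a borealin-type subunit of the chromosomal passenger complex to a subunit of the GINS replication complex. Its ends overlapped by 161 bases. The stop codons lay 168 bases apart, nbl1 had no annotated 3′ UTR, and the 328-base 3′ UTR of psf2 reached the coding sequence of nbl1. Next on the left, at 4.88 kb, tsp0 and php2, the latter a CCAAT-binding factor subunit, overlapped by 1278 bases. Their coding sequences shared 86 bases, and the 967-base 3′ UTR of php2 passed the whole coding sequence of tsp0. pir2, a zinc finger protein gene, and hob3, a BAR adaptor gene, lay at 9.36 kb and were the only convergent pair there with a gap, of 152 bases.

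On the right, res1, a subunit of the cell cycle transcription factor MBF, and rrn11, an RNA polymerase I transcription factor, overlapped by 84 bases at 6.25 kb. The stops were 275 bases apart, and neither transcript reached the partner's coding sequence. nit1/gyp10, a nitrilase-family protein and a GTPase-activating protein, overlapped by 35 bases at 12.2 kb, with 589 bases between the stops. At 16.7 kb the uncharacterized SPBC651.04 faced dot2, an ESCRT-II subunit, and their 3′ ends passed each other by 1236 bases. The 1594-base 3′ UTR of SPBC651.04 passed the coding sequence of dot2, whose whole span of 1198 bases lay inside it. Of the 6 pairs, 3 had a transcript that reached its partner's coding sequence, beside 31.3% of the 1286 pairs above.

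**Figure D4:**
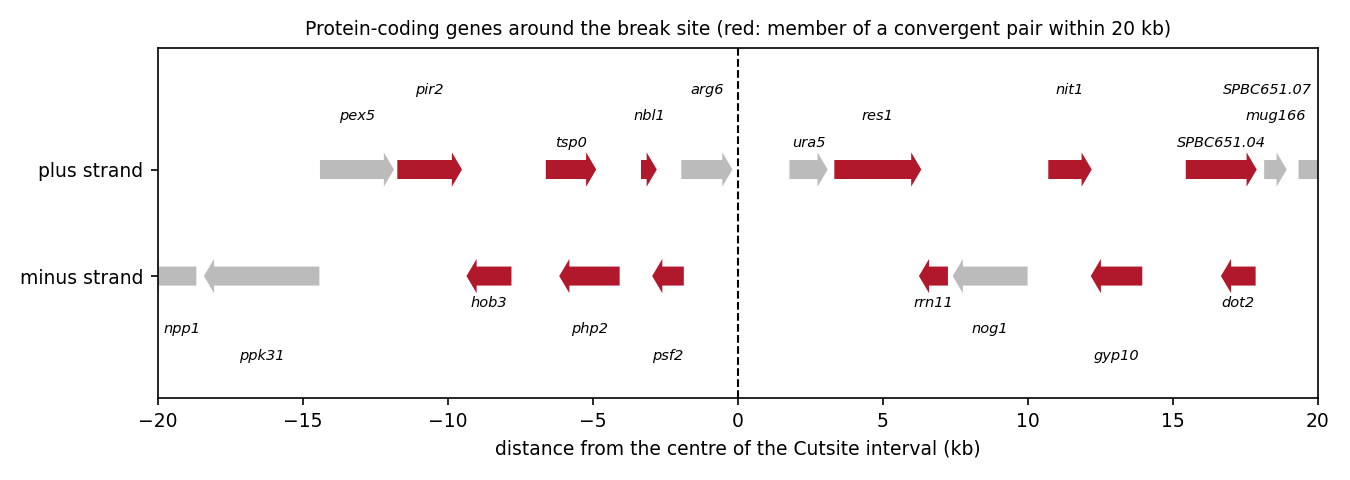
Protein-coding genes within 20 kb of the centre of the Cutsite interval (dashed line), by distance in kb (horizontal axis) and strand, from the deposited annotation. Only genes chosen by systematic name are drawn, and distances include the insert. Red arrows are the 12 genes of the 6 convergent pairs, grey arrows the other genes. The nearest convergent regions are those of nbl1/psf2 at 2.79 kb on the left and res1/rrn11 at 6.25 kb on the right.

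Of the genes named in the labels, 3 of 4 were in a convergent pair by the rule, beside 54.5% of all coding genes. By coding order 2 of the 4 were. ssb2, whose product was the Flag-tagged protein, faced sec1, a vesicle fusion gene, with an overlap of 3596 bases. The stops of sec1 and ssb2 were 405 bases apart, and the annotated 3′ UTRs were 1442 and 2558 bases. Both transcripts reached the partner's coding sequence, and that of sec1 passed the whole of ssb2. nmt1, the thiamine-repressed gene whose promoter drove rnh1 in one strain, was separated from gut2, a glycerol-3-phosphate dehydrogenase gene, by 1067 bases that held 3 SPNCRNA features. In RefSeq the nmt1/gut2 gap was 929 bases. rnh201 overlapped pcf11, a cleavage and polyadenylation factor gene, by 181 bases, but the coding sequence of adk1 lay between them, and in coding order the tail-to-tail pair was adk1/pcf11. rnh1 was in no convergent pair. ssb1 and ssb3, the other RPA subunit genes, were in none either.

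**Figure D5:**
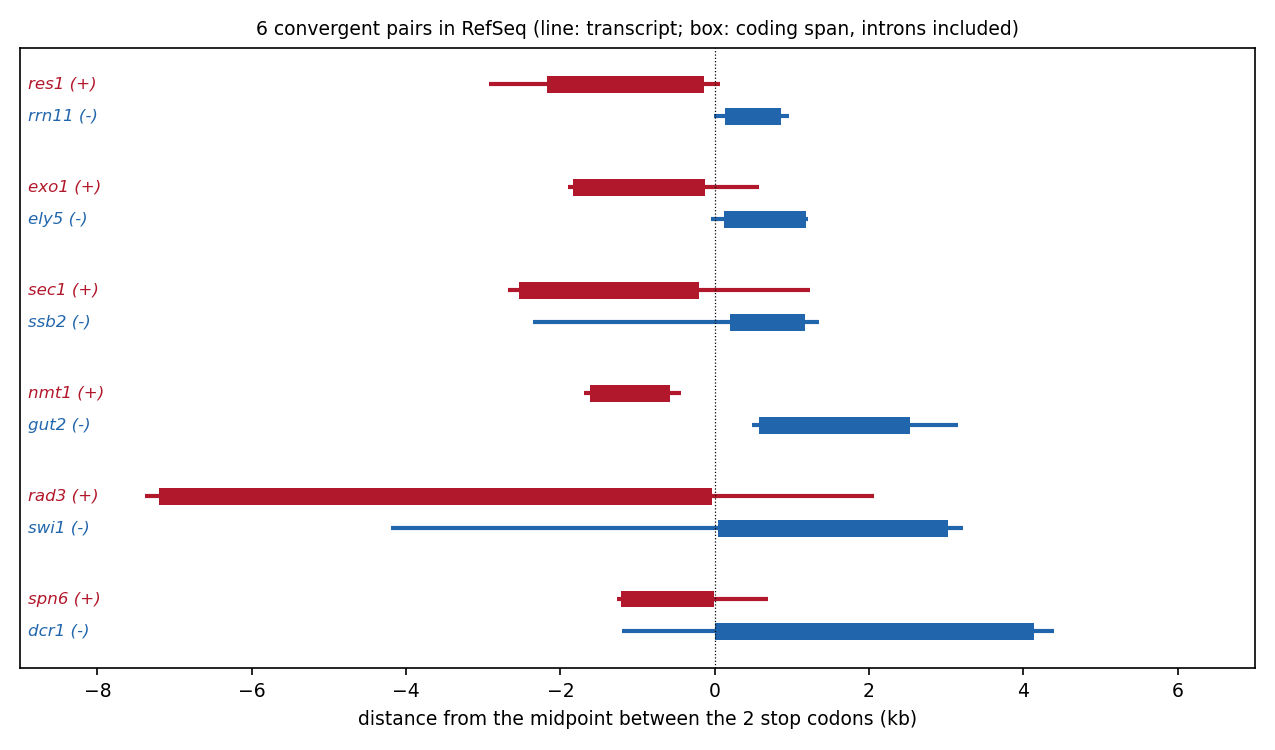
Transcripts (lines) and coding spans (boxes) of 6 convergent pairs in RefSeq, aligned on the midpoint between the stop codons (horizontal axis, kb), with the plus-strand gene red and the minus-strand gene blue. res1/rrn11 barely overlap, nmt1/gut2 are apart, and in sec1/ssb2, rad3/swi1 and spn6/dcr1 both transcripts run into the partner's coding span.

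Lists of genes that fit the study's subject were then looked up. Over all 5149 coding genes, 54.5% were in a convergent pair and 33.7% in an overlapping one. The lists are small and were not tested, so their counts are descriptions. Of 23 break repair genes, 9 were in a convergent pair (39.1%) and 6 in an overlapping one (26.1%). eme1, a subunit of the Mus81 nuclease, overlapped gde1 by 1120 bases, and the 3′ UTR of eme1, of 1186 bases, reached the coding sequence of gde1. The resection nuclease gene exo1 overlapped the nuclear pore gene ely5 by 634 bases, and its 707-base 3′ UTR reached the coding sequence of ely5. dna2, a nuclease and helicase, overlapped kae1 by 395 bases, and a 5-base overlap joined rad50, of the Mre11 complex, to emc5. The checkpoint mediator gene crb2 overlapped rtt109 by 93 bases and the recombination mediator gene sfr1 overlapped hrd3 by 67 bases. ctp1, the fission yeast counterpart of CtIP, had a gap of 23 bases to cox5.

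Of 20 genes of RNA interference and heterochromatin, 12 were in a convergent pair (60%) and 8 in an overlapping one (40%). rik1, a subunit of the CLRC ubiquitin ligase complex, overlapped SPCC11E10.09c by 3704 bases. cid12, a poly(A) polymerase of the RNA-directed RNA polymerase complex, spanned the whole 684 bases of naa50 with a 3′ UTR of 3401 bases, and its 3′ end lay 3181 bases past that of naa50. dcr1 overlapped the septin gene spn6 by 1904 bases, across the 20 bases between the stops printed above. hrr1, a helicase of the same polymerase complex as cid12, overlapped dms1 by 1322 bases, stc1 overlapped mug30 by 843 bases, and ers1 overlapped ipi1 by 62 bases. ago1, the Argonaute gene, and rdp1, the RNA-directed RNA polymerase gene, had short gaps of 16 bases to mmi1 and 28 bases to ade3. clr4, the histone H3 lysine methyltransferase gene, was in no pair by the rule, but its coding sequence was tail to tail with that of meu6.

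Of 11 cohesin genes, 3 were in a convergent pair, all overlapping. psc3 overlapped SPAC607.02c by 1176 bases, rad21 overlapped pof3 by 963 bases, and the acetyltransferase gene eso1 overlapped SPBC16A3.12c by 200 bases. Each of these pairs had a transcript that reached its partner's coding sequence. Of 22 genes of RNA 3′ end formation and termination, 9 were in a convergent pair (40.9%) and 6 in an overlapping one (27.3%). Within that list ppn1 overlapped sly1 by 795 bases, iss1 spanned the whole 707 bases of cum1, the poly(A) polymerase gene pla1 overlapped erg9 by 46 bases, and cft2 overlapped ngl1 by 38 bases. dhp1, the nuclear exonuclease gene of transcription termination, overlapped cnt6 by 155 bases, with SPAC26A3.11 between their coding sequences. Seen by coding order, the counts were 10 for break repair, 13 for RNA interference and heterochromatin, 3 for cohesin and 9 for 3′ end formation. Those in an overlapping pair were 7, 9, 3 and 6 in the same order. Over all 5149 coding genes, 2794 were in a convergent pair by coding order and 1854 in an overlapping one.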

How the data were processed

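The annotation the authors deposited is a BED list of 7002 features of the modified genome. The score column, as deposited by the authors, is 0 in every line and was made by no step the labels name. How the intervals were made was not given in the sources used here. Per the submitters' processing notes, Bowtie2 and the build ASM294v2 were used. The other deposited file, the 1842-base insert, gave the insert's length. Neither holds a value of any of the 12 samples, so depth is unknown and no p-value is given.

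Genes were rows on chromosomes I, II and III named SPA, SPB or SPC without RNA, 1 per name (1 name had more than 1 row, of which the longest was kept), and were sorted by start. Coordinates are 1-based (BED start plus 1). Gene symbols, coding ends and sequence came from RefSeq ASM294v3, matched by locus tag (5132 genes, of which 32 are pseudogenes there and 17 others had no match). Sequence was read in reference coordinates only.

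Pairs named are those within 20 kb of the break or holding a gene of the labels, the 6 longest overlaps (by the distance between facing ends) and the 6 longest gaps, up to 6 with adjoining ends, up to 8 with coding overlap, and up to 6 for each gene list. Genes named outside this rule (rdh54, hfl1, dsc4, ctp1, ago1, rdp1, clr4 and the tail-to-tail divergent pairs, among others) were chosen after their values were seen. Some items that the rule names are not reported here. Members and lists were chosen with earlier results of these data known. Code for pairing and for the sizes of gaps and overlaps was tested on simulated data of known answer, which held no nested genes. For the motif only the reverse complement of a placed AATAAA was checked. Motif counts, shared bases and reach into coding sequence were not tested in this way. The tools were Python 3.11.15, numpy 2.4.6 and matplotlib 3.10.9.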

Additional observations from a re-analysis of the deposited data

How the results depend on the processing

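Of 32 alternatives to the main values, 26 stayed within the stated interval of a share, or within 1.5 times a count or median, and 6 moved. The overlapping share of convergent pairs, 61.82% as reported, was 39.89% when the ends had to pass each other by at least 100 bases, 58.71% without nested genes and 66.36% when genes were sorted by coding sequence in place of start. The share of 3′ ends with AATAAA, 30.17% as reported, was 19.38% in 50 bases, 38.11% in 200 bases and 42.55% for AATAAA or ATTAAA. These settings differ in construction: they set how long an overlap must be, which pairs are kept, how wide a window is searched and which letters count. The number of convergent pairs was 1254 with no other feature between, 1393 by the RefSeq annotation, 1353 without 100 kb at chromosome ends and 1397 by coding order. RefSeq held 1352 of the deposited pairs (96.3% of the deposited and 97.06% of the RefSeq pairs). The share in which a transcript reached its partner's coding sequence was 29.78% with deposited ends and 29.4% with RefSeq ends on chromosomes I and III. The median overlap ranged from 135.5 to 221 bases, with 175 by bases shared, and the median gap from 159.5 to 177. Sorting by coding sequence, counting shared bases, leaving out pseudogenes or crossed gaps, and keeping immediate neighbours only were chosen after seeing the data. No paired analysis was possible because neither deposited file carries a sample's values. The annotation is a single source: annotated 3′ ends come with no estimate of their error, and whether both transcripts of a pair are made in the same cells was not analysed here.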
